A study of Mus musculus with 6 samples.

Results

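Dendritic cells of the peripheral lymph node were set against dendritic cells of the spleen in mice that had received no T cells. The lymph node library came from un-injected germ-free Rag KO mice of the C57BL/6 strain, and the spleen library from un-injected mice of the same kind. Rag KO mice cannot rearrange antigen receptor genes and so have no T or B lymphocytes of their own, and germ-free mice carry no microbes. Both features are shared by every group of the series. The other 4 of 6 libraries come from the same kind of mice given naive CD4 T cells or Treg (regulatory T cells) 1 week before, with 1 lymph node and 1 spleen library for each transfer. Cells were sorted by flow cytometry and RNA was taken up in Trizol. Which Rag gene was deleted, the sorting gate, the number, age and sex of the mice, and whether the tissues were paired by animal, are likewise not stated in what was used here.

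Genes were chosen by their level: a gene entered the comparison if it reached 1 FPKM (fragments scaled for gene length and library size, a unit taken from the values) in at least 1 of the 2 libraries. Of 21914 gene symbols, 11147 did. The gene just inside that limit was Abcb4 at 1.00 FPKM in its higher library, the gene just outside was Chrm4 at 0.9996 FPKM, and 1093 of the genes kept stayed under 2 FPKM in both. Each difference is given as the log2 ratio of lymph node to spleen after adding 0.5 FPKM to both values, which understates the difference of low genes. There was 1 library on each side, so no value has an error and no difference between these 2 libraries was tested.

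Dendritic cells take up antigen, process it and present it to T cells. In the steady state a part of the tissue-resident cells matures without infection, switches on the receptor CCR7 and travels through lymph vessels to the draining lymph node, whereas the spleen receives its dendritic cells from the blood. Conventional dendritic cells fall into type 1 cells, which are specialised in presenting material of dead cells on MHC class I, and type 2 cells, which mainly present on MHC class II to CD4 T cells.

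The 2 libraries differed widely. At 2-fold or more, 2595 genes were higher in lymph node (23.3% of 11147) and 2359 were lower (21.2%), together 44.4% of the genes kept. These are the shares to set beside each count of list genes below. The median log2 ratio of all genes was 0.0043, with quartiles at -0.84 and 0.91, and 34.84% of genes lay within 1.5-fold of equality. A threshold of 4-fold left 963 higher and 914 lower genes, and one of 16-fold left 148 and 128. Of the genes at 2-fold or more, 345 of the higher ones were listed at 0 in spleen and 280 of the lower ones at 0 in lymph node. A listed 0 can be a missing estimate here, since every library lists 0 for the same 11 of 13 mitochondrial genes, and no fold is given against one. The share of higher genes among those at 2-fold or more was 52.4%, and 65.5% when both libraries were brought to the same total, which moved the median of all genes by 0.33 on the log2 scale. The deposited values summed to 677612 FPKM in lymph node and 861260 FPKM in spleen, and the 10 highest genes held 13.12% and 16.73% of those sums in lymph node and spleen. The gene of highest level was Tmsb4x, the actin-binding thymosin beta 4, in lymph node at 18994 FPKM, and Cd74, the invariant chain of MHC class II, in spleen at 25602 FPKM.

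**Figure D1:**
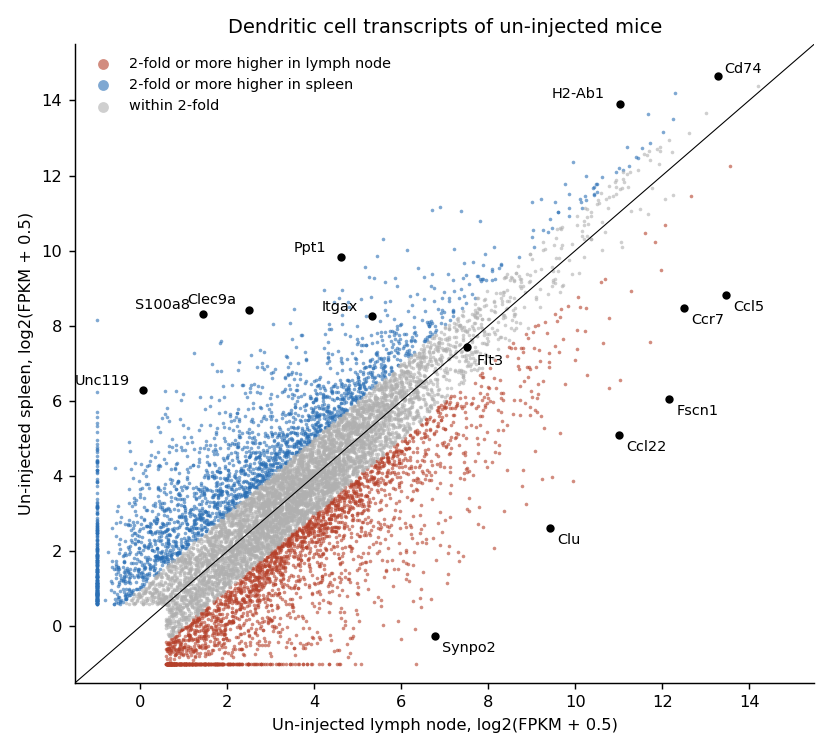
Levels of the 11147 genes as log2(FPKM + 0.5), un-injected lymph node on the horizontal and un-injected spleen on the vertical axis. Red points are the 2595 genes at least 2-fold higher in lymph node, blue points the 2359 at least 2-fold higher in spleen, and genes listed at 0 in a library lie along its edge at -1; Fscn1, Ccl22 and Clu lie far below the line of equality and Clec9a and S100a8 far above it.

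Both libraries carried transcripts of conventional dendritic cells, at unequal levels. Flt3, a receptor tyrosine kinase on which these cells depend, was at 183 FPKM in lymph node and 173 FPKM in spleen. Zbtb46, which marks the conventional lineage among mononuclear phagocytes, was at 49.8 FPKM in lymph node and 13.5 FPKM in spleen. Itgax, which encodes the CD11c integrin chain, was at 39.7 FPKM in lymph node and 305 FPKM in spleen, a log2 ratio of -2.93. Of the 15 markers of conventional dendritic cells, MHC class II genes among them, 4 were at least 2-fold higher and 8 at least 2-fold lower. The other 3 lay in between, and the median was -1.14. More of the markers were thus lower than higher, against 23.3% higher and 21.2% lower among all genes.

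Markers of neutrophils, erythroid cells, B cells, platelets and macrophages differed between the libraries too, and were mostly lower in lymph node. Sums are given over every marker of a list, and counts over those that reached 1 FPKM. Neutrophil markers summed to 65.1 FPKM in lymph node and 1818 FPKM in spleen. Of these sums Il1r2, which is also on the type 2 dendritic cell list, held 43.2 FPKM in lymph node and 926 FPKM in spleen. Of the 20 markers 17 reached 1 FPKM, of which 16 were lower and 9 were listed at 0 in lymph node. The defining neutrophil gene S100a8, a calcium-binding protein, was at 2.22 FPKM in lymph node and 318 FPKM in spleen, and Ngp, Camp, Ltf, Retnlg and Lcn2, proteins of neutrophil granules, were each listed at 0 in lymph node and lay between 21.2 and 75.5 FPKM in spleen. In the spleen libraries of mice given naive T cells and Treg, S100a8 was at 9.33 and 1.59 FPKM, so the un-injected spleen library stood apart from the other spleen libraries in this gene. Erythroid markers summed to 119.7 FPKM in lymph node and 691.7 FPKM in spleen, with 9 of 11 lower. Hbb-bs, a beta globin chain, was at 27.0 FPKM in lymph node and 394 FPKM in spleen. All 6 B cell markers kept were lower, with a sum of 5.24 FPKM in lymph node and 65.95 FPKM in spleen, and platelet markers summed to 13.2 FPKM in lymph node and 44.5 FPKM in spleen, with 4 of 7 lower. Macrophage markers summed to 434.7 FPKM in lymph node and 1634 FPKM in spleen, with 2 of 20 higher and 13 lower. The part of these cells in the differences below was not tested, and in sorted bulk RNA fewer cells of a type and less RNA per cell cannot be told apart.

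Markers of lymph node stroma were low in both libraries. The 16 markers of lymph node stroma summed to 12.3 FPKM in lymph node and 2.97 FPKM in spleen, and 4 of them reached 1 FPKM, with a median log2 ratio of 2.26. Ccl21a, a chemokine of stromal cells, was at 4.40 FPKM in lymph node and listed at 0 in spleen. Endothelial markers had a median log2 ratio of -0.70 over 5 genes (-2.77 over those at 5 FPKM or more), adipocyte markers 0.98 over 6 genes, mast cell and basophil markers -0.60 over 8 genes (2.26 over those at 5 FPKM or more) and keratinocyte markers 1.02 over 4 genes. The T cell list had a median of 0.76 over 11 of 23 markers (3.12 over those at 5 FPKM or more) and summed to 147.6 FPKM in lymph node and 34.6 FPKM in spleen. That sum was mostly Tcf7, a transcription factor of lymphoid cells, at 93.7 FPKM in lymph node and 4.496 FPKM in spleen, and Il2ra, a chain of the interleukin 2 receptor, at 25.6 FPKM in lymph node and 0.611 FPKM in spleen. Of the genes that define T cells, Cd3e was at 0.584 FPKM in lymph node and listed at 0 in spleen. Markers of natural killer and innate lymphoid cells had a median of -1.34, with 2 of 14 higher and 10 lower. Those higher were Tcf7 and Il7r, the interleukin 7 receptor chain, at 68.7 FPKM in lymph node and 3.46 FPKM in spleen, while Gzma, a cytotoxic granule protease, was at 0.871 FPKM in lymph node and 8.53 FPKM in spleen.

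Genes of the program that accompanies dendritic cell maturation and migration were higher in lymph node nearly throughout. Of the 50 genes of the list, 44 were at least 2-fold higher, 2 at least 2-fold lower and 4 in between, against 23.3% higher and 21.2% lower among all genes, and the median log2 ratio was 3.36, with a range of -1.37 to 6.33. Summed over the list, the level was 42620 FPKM in lymph node and 15980 FPKM in spleen. Most of the spleen sum was Cst3, a gene that went the other way, at 4891 FPKM in lymph node and 11698 FPKM in spleen. Its members were put together from genes known to mark this state in other data, and with earlier results of these libraries known, so its direction is no independent evidence.

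Ccr7, the chemokine receptor for migration towards the T cell zone, was at 5829 FPKM in lymph node, against 356 FPKM in spleen, 16.4-fold higher. Fscn1, an actin-bundling protein that shapes the dendrites of mature cells, was at 4583 FPKM in lymph node, against 66.4 FPKM in spleen, 68.5-fold higher. Both belong to the machinery of migration, and on the mm10 build Ccr7 (ENSMUSG00000037944) lies on chromosome 11 from 99144196 to 99155077 and Fscn1 (ENSMUSG00000029581) on chromosome 5 from 142960343 to 142973185. Cacnb3, a subunit of calcium channels, was at 987 FPKM in lymph node and 14.2 FPKM in spleen. Adcy6, an adenylate cyclase that makes cyclic AMP, was at 281 FPKM in lymph node and 3.73 FPKM in spleen. Slco5a1, of the organic anion transporter family, was at 63.0 FPKM in lymph node and 0.288 FPKM in spleen, the highest log2 ratio of the list at 6.33.

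The surface and secreted proteins of mature dendritic cells followed in the same direction. Il15ra, the chain that presents interleukin 15 to neighbouring cells, was at 218 FPKM in lymph node and 6.07 FPKM in spleen, and its ligand Il15 at 181 FPKM in lymph node and 18.0 FPKM in spleen. Cd63, a tetraspanin of late endosomes, was at 1760 FPKM in lymph node and 80.2 FPKM in spleen. Fabp5, a fatty acid carrier, was at 2085 FPKM in lymph node and 94.6 FPKM in spleen. The 6 genes of the list that were not 2-fold higher include well-known signs of activation. Cd86, a ligand of CD28 on T cells, was at 98.3 FPKM in lymph node and 256 FPKM in spleen, and its relative Cd80 at 113 FPKM in lymph node and 88.9 FPKM in spleen. Cd83, which stabilises MHC class II at the surface, was at 2115 FPKM in lymph node and 1201 FPKM in spleen. Cst3, the protease inhibitor cystatin C, was at 4891 FPKM in lymph node and 11698 FPKM in spleen. Laptm4b and Ebi3 had ratios of 0.84 and 0.65. The ligands of CD28 therefore did not differ between these libraries as Ccr7 and Fscn1 did.

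**Figure D2:**
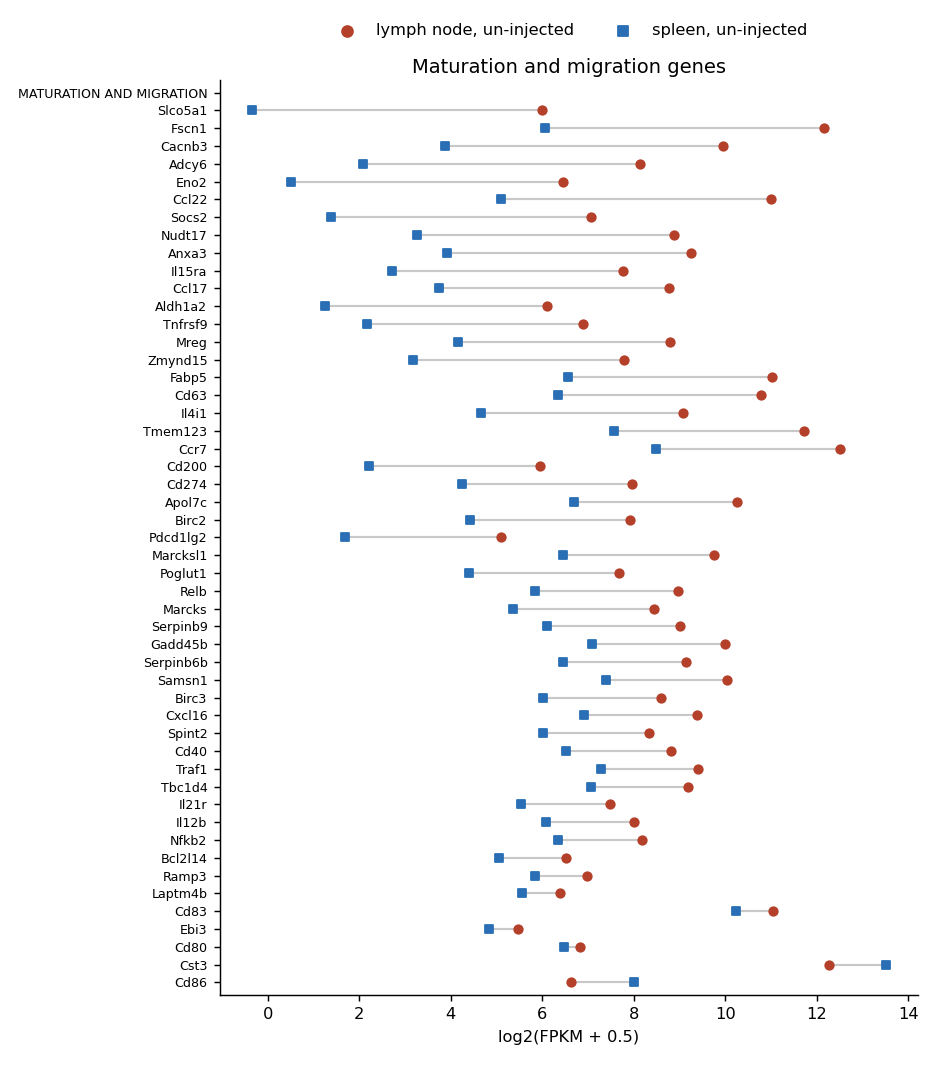
Levels of the 50 genes of the maturation and migration list as log2(FPKM + 0.5) in the un-injected lymph node (red circles) and un-injected spleen library (blue squares), ordered by their ratio. The lymph node value lies to the right in 48 of the 50 genes, and Cst3 and Cd86 are the 2 at the bottom that are lower in lymph node.

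Genes of the NF-kB pathway, the transcription factor family that drives dendritic cell maturation, were higher in lymph node where they were 2-fold apart. Of 28 subunits and regulators 18 were at least 2-fold higher and 0 at least 2-fold lower, with a median log2 ratio of 1.52. Relb, the subunit of the alternative pathway, was at 499 FPKM in lymph node and 56.6 FPKM in spleen. Nfkbia, the inhibitor that holds the dimers in the cytoplasm and is itself a target of the pathway, was at 1186 FPKM in lymph node and 233 FPKM in spleen. Nfkb1, the subunit p50, was among the 10 that were not 2-fold apart, at 85.9 FPKM in lymph node and 142 FPKM in spleen. The subunits thus differed among themselves, Relb, Rel and Nfkb2 being higher in lymph node and Nfkb1 lower at less than 2-fold. Birc2 and Birc3, ubiquitin ligases that restrain the alternative pathway and cell death, had ratios of 3.51 and 2.57, and Tnfaip3, the feedback enzyme A20, had a ratio of 2.29.

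A form of the NF-kB binding motif, GGG followed by any 2 bases and TTTCC, was searched on both strands in promoters of 300 bases, 250 before to 50 after an annotated start, as RefSeq gives them for GRCm38.p6. Of 23 NF-kB list genes with such a window 7 held it (30.4%: Cyld, Nfkb2, Nfkbia, Rel, Tnfaip3, Traf2 and Traf3), against 1.89% of 27025 genes with a window. Of 36 maturation genes 3 held it (8.33%: Eno2, Nfkb2 and Tnfrsf9). The windows of Nfkbia, at chr12:55492598-55492897 on the minus strand, and of the first of 3 annotated starts of Nfkb2, at chr19:46304487-46304786 on the plus strand, are shown because these genes are both members and known targets of the pathway; capitals mark the motif, which does not overlap another match.
Nfkbia promoter: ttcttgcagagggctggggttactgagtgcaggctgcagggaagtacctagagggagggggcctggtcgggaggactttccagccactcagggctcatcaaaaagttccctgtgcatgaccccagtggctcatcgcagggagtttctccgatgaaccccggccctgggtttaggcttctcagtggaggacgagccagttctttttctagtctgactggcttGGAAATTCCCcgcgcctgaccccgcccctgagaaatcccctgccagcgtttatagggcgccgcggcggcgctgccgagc
Nfkb2 promoter: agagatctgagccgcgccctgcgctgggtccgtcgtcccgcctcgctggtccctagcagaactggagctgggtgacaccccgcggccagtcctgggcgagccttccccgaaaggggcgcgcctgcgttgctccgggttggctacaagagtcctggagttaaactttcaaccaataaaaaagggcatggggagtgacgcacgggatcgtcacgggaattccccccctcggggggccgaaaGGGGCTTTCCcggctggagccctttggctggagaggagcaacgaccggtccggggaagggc
Nfkb2, the p100 precursor of the alternative pathway, was at 287 FPKM in lymph node and 80.6 FPKM in spleen. A match of letters is a description of the window and shows neither binding nor a cause.

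Genes of cell survival and of dendritic cell transcription also leaned towards lymph node. Of 29 genes of survival and the BCL2 family 15 were at least 2-fold higher and 1 lower, with a median of 1.48. Cflar, an inhibitor of caspase 8, was at 94.7 FPKM in lymph node and 4.16 FPKM in spleen. Fas, the death receptor, was at 77.2 FPKM in lymph node and 7.15 FPKM in spleen. The list holds inhibitors and promoters of cell death, and both kinds were among the higher genes: Bcl2l1, an inhibitor, had a ratio of 1.998 and Bmf and Bbc3, promoters, 2.13 and 1.82. Birc5, a protein of dividing cells and the 1 lower gene, was listed at 0 in lymph node and stood at 30.8 FPKM in spleen. Of 39 transcription factors of dendritic cells 20 were at least 2-fold higher and 6 lower, with a median of 1.09. Etv3, an ETS family repressor, was at 561 FPKM in lymph node and 72.7 FPKM in spleen. Id2, an inhibitor of E proteins needed by conventional cells, was at 1760 FPKM in lymph node and 294 FPKM in spleen. Mycl, a MYC relative of dendritic cells, was at 1.26 FPKM in lymph node and 27.7 FPKM in spleen, the lowest ratio of that list.

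Some chemokines were far higher in lymph node and some far lower. Of 22 chemokines 10 were at least 2-fold higher, 6 lower and 6 in between, against 23.3% higher and 21.2% lower among all genes. The share of lower chemokines was thus not far from that of all genes, and the median of 0.67 describes neither kind. Ccl5, which attracts T cells and other leukocytes, was at 11359 FPKM in lymph node and 452 FPKM in spleen. Ccl22, a ligand of CCR4 on regulatory and other T cells, was at 2051 FPKM in lymph node and 33.7 FPKM in spleen, and Ccl17, the other ligand of CCR4, at 438 FPKM in lymph node and 12.9 FPKM in spleen. Cxcl1, which attracts neutrophils, was at 102 FPKM in lymph node and 1.16 FPKM in spleen. The chemokine Ccl8 was also higher, at 69.5 FPKM in lymph node and 2.15 FPKM in spleen. Among those lower in lymph node were inflammatory chemokines made by myeloid cells. Ccl4 was at 49.1 FPKM in lymph node and 572 FPKM in spleen, Ccl3 at 22.97 FPKM in lymph node and 160 FPKM in spleen, and Ccl6 at 25.4 FPKM in lymph node and 218 FPKM in spleen. Cxcl9, a chemokine induced by interferon-gamma, was at 4.56 FPKM in lymph node and 85.5 FPKM in spleen, while Cxcl10, which binds the same receptor, stood at 60.3 FPKM in lymph node and 52.1 FPKM in spleen.

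Of 19 chemokine receptors 6 were at least 2-fold higher and 9 lower, against 23.3% and 21.2% of all genes. Their median was -0.46 (-1.48 over those at 5 FPKM or more). Besides Ccr7, the prostaglandin E2 receptor Ptger4, which is listed with them for its role in migration, was at 178 FPKM in lymph node and 17.8 FPKM in spleen. Ccr2, the receptor for exit of monocytes from the marrow, was at 4.55 FPKM in lymph node and 35.2 FPKM in spleen. Xcr1, the receptor of type 1 dendritic cells, was at 0.914 FPKM in lymph node and 46.2 FPKM in spleen. Among 23 cytokines 7 were higher and 8 lower, against 23.3% and 21.2% of all genes, with a median of 0.07. Il12b, a subunit of interleukins 12 and 23, was at 255 FPKM in lymph node and 67.7 FPKM in spleen, whereas Il1b, the inflammatory interleukin 1 beta, was at 747 FPKM in lymph node and 2521 FPKM in spleen, and Tnf at 25.3 FPKM in lymph node and 68.8 FPKM in spleen. Of 34 growth factor and cytokine receptors 9 were higher and 10 lower, with a median of 0.06, which is near the 23.3% and 21.2% of all genes. Csf2rb2 and Csf2rb, beta chains of the receptor for GM-CSF and related cytokines, had ratios of 3.39 and 2.04, while Ifngr1, the ligand-binding chain for interferon-gamma, was at 27.4 FPKM in lymph node and 360 FPKM in spleen, and Il1r2, a decoy receptor for interleukin 1, at 43.2 FPKM in lymph node and 926 FPKM in spleen.

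Ligands that steer T cells also divided. Of 32 costimulatory and inhibitory ligands 12 were at least 2-fold higher and 11 lower, against 23.3% and 21.2% of all genes. Their median was 0.14. Cd274 and Pdcd1lg2, both ligands of the inhibitory receptor PD-1, were at 250 FPKM and 34.0 FPKM in lymph node, against 18.5 FPKM and 2.74 FPKM in spleen. Cd40, the receptor for T cell help, was at 450 FPKM in lymph node and 91.3 FPKM in spleen, and Icam1, an adhesion ligand for T cells, at 427 FPKM in lymph node and 83.5 FPKM in spleen. On the lower side, Btla, an inhibitory receptor, was at 4.61 FPKM in lymph node and 85.5 FPKM in spleen, and Havcr2, the receptor TIM-3, at 10.7 FPKM in lymph node and 108 FPKM in spleen. Genes linked to tolerance were split as well, with 13 of 30 higher and 11 lower, against 23.3% and 21.2% of all genes. Their median was 0.14. Aldh1a2, the enzyme that makes retinoic acid, was at 68.0 FPKM in lymph node and 1.88 FPKM in spleen. Il4i1, an amino acid oxidase that restrains T cells, was at 542 FPKM in lymph node and 25.01 FPKM in spleen. Socs2, an inhibitor of cytokine signalling, was at 133 FPKM in lymph node and 2.13 FPKM in spleen. Tgfb1 and Hmox1, a suppressive cytokine and the heme-degrading enzyme, were lower instead, at 20.2 FPKM and 12.5 FPKM in lymph node, against 117 FPKM and 214 FPKM in spleen.

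Genes of type 1 conventional dendritic cells were lower in lymph node. Of 20 markers 17 were at least 2-fold lower and 1 higher, with a median log2 ratio of -4.49, and they summed to 595.2 FPKM in lymph node and 3438 FPKM in spleen. Clec9a, the receptor for actin of dead cells, was at 5.14 FPKM in lymph node, against 344 FPKM in spleen, 61.1-fold lower. Ppt1, a lysosomal thioesterase, was at 23.9 FPKM in lymph node and 910 FPKM in spleen. Wdfy4, a protein needed for cross-presentation, was at 10.4 FPKM in lymph node and 268 FPKM in spleen. Tlr3, the sensor of double-stranded RNA, was listed at 0 in lymph node and stood at 16.4 FPKM in spleen. The transcription factors that define the type 1 lineage did not follow these markers. Batf3 was at 147 FPKM in lymph node and 48.9 FPKM in spleen, and Irf8 at 253 FPKM in lymph node and 193 FPKM in spleen.

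Markers of type 2 conventional dendritic cells showed a similar division at a smaller size, with 5 of 20 at least 2-fold higher and 13 lower and a median of -2.18. Lower were surface proteins. Cd209a, a C-type lectin, was at 35.9 FPKM in lymph node and 308 FPKM in spleen, Itgam, the CD11b integrin chain, at 4.24 FPKM in lymph node and 55.0 FPKM in spleen, and Clec4a4, a lectin of splenic cells, was listed at 0 in lymph node and stood at 47.2 FPKM in spleen. Higher were Irf4, the transcription factor of the type 2 lineage, at 47.5 FPKM in lymph node and 18.9 FPKM in spleen, and Klf4, at 81.2 FPKM in lymph node and 37.1 FPKM in spleen. Tmem176a and Tmem176b, paired ion channel proteins of type 2 cells, were at 1110 FPKM and 1542 FPKM in lymph node, against 364 FPKM and 574 FPKM in spleen. In both lists the lineage transcription factors were thus not lower where most surface markers were. Of 10 genes kept of the Notch2-dependent splenic list 3 were higher and 5 lower, with a median of -0.98; Esam was at 19.1 FPKM in lymph node and 7.46 FPKM in spleen, while Ltb, the lymphotoxin beta chain, was at 6.70 FPKM in lymph node and 47.7 FPKM in spleen.

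**Figure D3:**
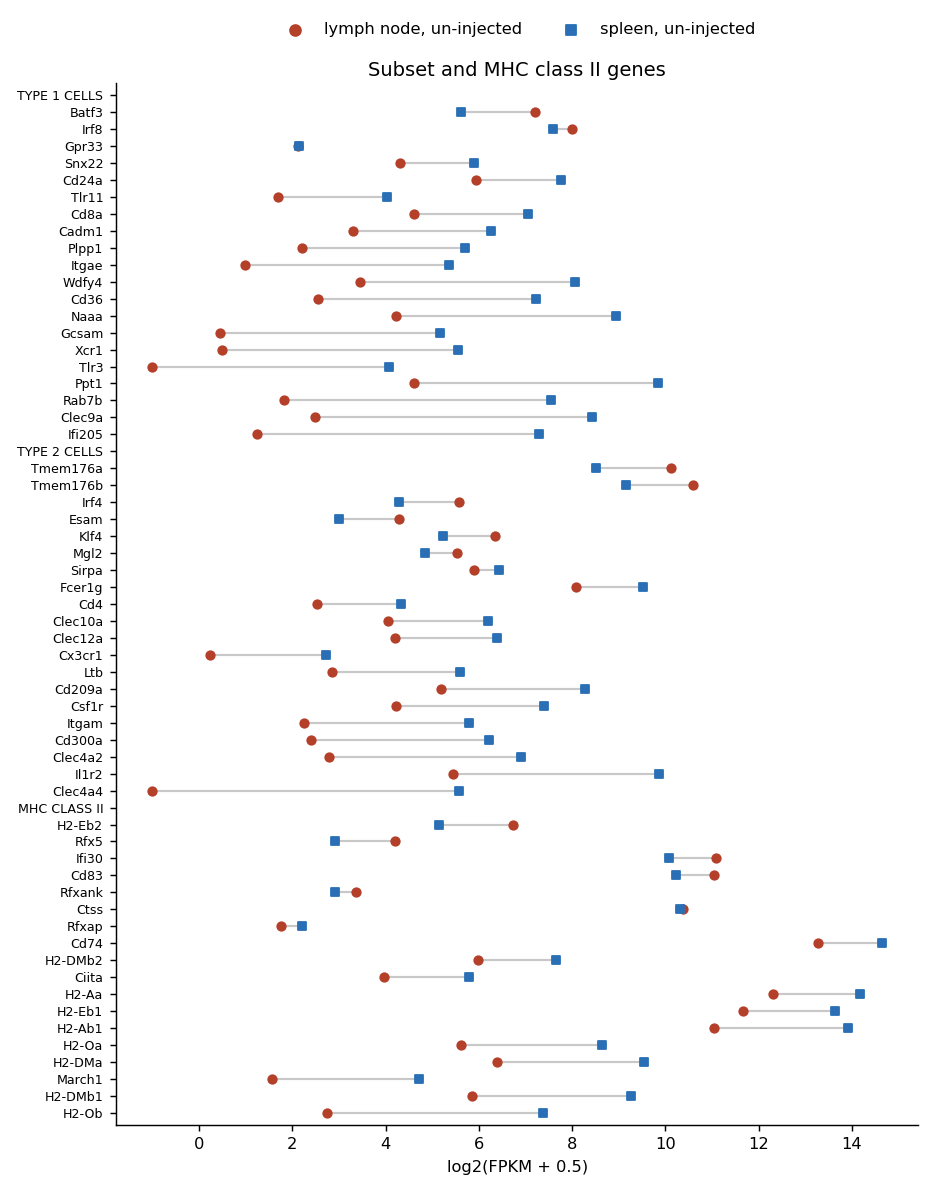
Levels of type 1 markers, type 2 markers and MHC class II genes as log2(FPKM + 0.5) in the un-injected lymph node (red circles) and un-injected spleen library (blue squares), ordered by ratio within each block. Most lymph node values lie to the left, while Batf3, Irf8, Irf4, Klf4 and H2-Eb2 lie to the right; a value of -1 is a listed 0.

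Langerhans cell markers leaned towards lymph node and plasmacytoid markers were mixed. Of 9 Langerhans markers 7 were at least 2-fold higher and 2 lower, with a median of 1.76. Epcam, an adhesion protein of Langerhans cells, was at 14.95 FPKM in lymph node and 1.32 FPKM in spleen, and Ltc4s, the enzyme that makes leukotriene C4, at 159 FPKM in lymph node and 2.84 FPKM in spleen. The gene that defines the type, Cd207, which encodes langerin, went the other way, at 15.48 FPKM in lymph node and 45.6 FPKM in spleen. Of 21 plasmacytoid markers 5 were higher and 9 lower, against 23.3% and 21.2% of all genes, with a median of -0.39. Siglech was at 1.68 FPKM in lymph node and 13.7 FPKM in spleen. Tcf4, the transcription factor of these cells, was at 26.3 FPKM in lymph node and 8.87 FPKM in spleen. All 20 monocyte markers were at least 2-fold lower, with a median of -3.27 and sums of 585.4 FPKM in lymph node and 6185 FPKM in spleen. Plac8 was at 104 FPKM in lymph node and 2153 FPKM in spleen, and Lyz2, the myeloid lysozyme, at 166 FPKM in lymph node and 2116 FPKM in spleen. Ace and Treml4, genes of the non-classical monocytes that patrol vessels, were at 0.979 FPKM and 2.66 FPKM in lymph node, against 76.8 FPKM and 125 FPKM in spleen.

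The MHC class II pathway was lower in lymph node and the MHC class I pathway higher. Of 18 class II genes 11 were at least 2-fold lower and 2 higher, with a median of -1.75. H2-Ab1, the beta chain of I-A, was at 2100 FPKM in lymph node, against 15411 FPKM in spleen, 7.34-fold lower. Cd74 was at 9886 FPKM in lymph node and 25602 FPKM in spleen, and Ciita, the coactivator of all class II promoters, at 15.1 FPKM in lymph node and 54.7 FPKM in spleen. The peptide-loading chains H2-DMa and H2-DMb1 and their inhibitors H2-Oa and H2-Ob were further down, with ratios of -3.162, -3.42, -3.02 and -4.62. The 2 higher genes were the class II factor Rfx5, at 17.9 FPKM in lymph node and 7.05 FPKM in spleen, and H2-Eb2, a second E beta gene, at 106 FPKM in lymph node and 34.8 FPKM in spleen. Its neighbour H2-Eb1, the classical E beta chain, was at 3259 FPKM in lymph node and 12671 FPKM in spleen.

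H2-Eb1 and H2-Eb2 thus differed in opposite directions. Their promoter windows from RefSeq (GRCm38.p6, both on the plus strand) are shown for that reason: H2-Eb1 at chr17:34305617-34305916 and H2-Eb2 at chr17:34325425-34325724. Capitals mark an X box form (AG, any base, AAC, any base, GATG, searched on both strands) and GATTGG or its reverse complement, the core of the Y box.
H2-Eb1 promoter: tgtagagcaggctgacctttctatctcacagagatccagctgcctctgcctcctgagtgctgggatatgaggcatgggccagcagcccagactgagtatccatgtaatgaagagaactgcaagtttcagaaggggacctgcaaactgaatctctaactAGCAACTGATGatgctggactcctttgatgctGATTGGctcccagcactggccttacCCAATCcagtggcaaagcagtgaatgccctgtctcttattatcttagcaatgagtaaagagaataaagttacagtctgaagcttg
H2-Eb2 promoter: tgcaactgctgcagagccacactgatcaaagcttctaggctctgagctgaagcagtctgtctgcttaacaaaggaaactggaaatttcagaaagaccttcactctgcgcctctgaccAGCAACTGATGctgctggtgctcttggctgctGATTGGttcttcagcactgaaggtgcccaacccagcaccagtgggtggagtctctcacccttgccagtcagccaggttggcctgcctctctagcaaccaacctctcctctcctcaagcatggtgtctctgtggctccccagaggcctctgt
Both windows hold the same X box letters, with a Y box starting 32 bases after the X box starts, and no marked stretch overlaps another. Of 12 class II list genes with a window 3 held the X box letters (25%: H2-DMb1, H2-Eb1 and H2-Eb2), against 0.359% of all genes, and 10 held GATTGG (83.3%), against 18.2% of all genes. GATTGG was also present in 11 of 19 class I genes (57.9%), a list whose median lay on the other side of 0.

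Of 23 class I genes 12 were at least 2-fold higher and 2 lower, with a median of 1.13. B2m, the light chain of all class I molecules, was at 11992 FPKM in lymph node and 4907 FPKM in spleen. H2-K1, a classical heavy chain, was at 3667 FPKM in lymph node and 1203 FPKM in spleen. Nlrc5, the class I counterpart of Ciita, was at 163 FPKM in lymph node, against 15.04 FPKM in spleen, 10.5-fold higher. The Qa-2 genes H2-Q4, H2-Q6 and H2-Q7 had ratios of 3.05, 3.31 and 2.35; they are near-identical to each other, so reads could be split between them. The 2 lower genes, Calr and Pdia3, are chaperones of the endoplasmic reticulum with many clients, with ratios of -1.56 and -1.57. The coactivator of class I and the coactivator of class II therefore differed in opposite directions. The list medians did so too, though 9 of 23 class I genes and 5 of 18 class II genes lay within 2-fold. A link between coactivator and list was not tested.

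Receptors for uptake and for sensing microbes were mostly lower in lymph node. Of 28 C-type lectin and endocytic receptors 19 were at least 2-fold lower and 7 higher, with a median of -2.08. Ly75, the uptake receptor DEC-205, was among the higher ones at 79.8 FPKM in lymph node and 12.01 FPKM in spleen. Cd36, a scavenger receptor, was at 5.38 FPKM in lymph node and 148 FPKM in spleen. Of 27 Toll-like receptors and adaptors 16 were lower and 3 higher, with a median of -1.59. Tlr7 was at 0.611 FPKM in lymph node and 18.8 FPKM in spleen, Tlr2 at 10.5 FPKM in lymph node and 50.4 FPKM in spleen, and Unc93b1, the chaperone that delivers nucleic acid sensors to endosomes, at 72.8 FPKM in lymph node and 440 FPKM in spleen. Ly96, the TLR4 partner MD-2, went against the list at 88.2 FPKM in lymph node and 4.24 FPKM in spleen. Of 8 Fc receptors 6 were lower and 1 higher, with a median of -1.73, and Fcgr4 was at 3.84 FPKM in lymph node and 85.1 FPKM in spleen. Of 17 complement genes 9 were lower and 4 higher, with a median of -1.36. The highest ratio among them was that of Clu, an extracellular chaperone that also restrains complement, at 687 FPKM in lymph node and 5.63 FPKM in spleen.

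Adhesion genes divided by kind. Of 33 integrins and adhesion genes 12 were at least 2-fold higher and 12 lower, against 23.3% and 21.2% of all genes. Their median was -0.75. The leukocyte integrin chains were lower: Itgb2, the shared beta 2 chain, was at 39.2 FPKM in lymph node and 437 FPKM in spleen, Itgal, its partner in LFA-1, at 3.10 FPKM in lymph node and 111 FPKM in spleen, and Itgb7 at 12.7 FPKM in lymph node and 217 FPKM in spleen. Higher were F11r, a junction protein, at 49.95 FPKM in lymph node and 2.35 FPKM in spleen, and Itgb1, the shared beta 1 chain, at 261 FPKM in lymph node and 117 FPKM in spleen. Of 45 actin and motility genes 14 were higher and 8 lower, with a median of 0.22, shares not far from the 23.3% and 21.2% of all genes. Marcks and Marcksl1, proteins that tie actin to the membrane, were at 347 FPKM and 868 FPKM in lymph node, against 40.4 FPKM and 87.3 FPKM in spleen. Rac2, the GTPase of blood cells, was at 10.5 FPKM in lymph node and 104 FPKM in spleen, while Rac1 stood at 158 FPKM in lymph node and 108 FPKM in spleen.

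Genes of growth and division were lower in lymph node. Of 45 cell cycle genes 33 were at least 2-fold lower and 2 higher, with a median of -1.97. Pcna, the sliding clamp of DNA replication, was at 96.5 FPKM in lymph node and 273 FPKM in spleen. Top2a, which untangles chromosomes, was at 2.38 FPKM in lymph node and 22.8 FPKM in spleen. Ube2c and Ccnb1, of mitosis, were listed at 0 in lymph node and stood at 28.6 FPKM and 7.58 FPKM in spleen. The 2 higher genes, Cdkn1a and Cdkn2c, encode inhibitors of the cycle, and Cdkn1a was at 549 FPKM in lymph node and 119 FPKM in spleen. Cdk1, the kinase of mitosis, was at 7.65 FPKM in lymph node and 34.6 FPKM in spleen. Its promoter window from RefSeq (GRCm38.p6, chr10:69352863-69353162, minus strand) is shown because it holds both letter patterns that were frequent in this list, each in capitals: TTTGAA, a form of the cell cycle homology region, and GATTGG, the core of a CCAAT box, with no overlap.
Cdk1 promoter: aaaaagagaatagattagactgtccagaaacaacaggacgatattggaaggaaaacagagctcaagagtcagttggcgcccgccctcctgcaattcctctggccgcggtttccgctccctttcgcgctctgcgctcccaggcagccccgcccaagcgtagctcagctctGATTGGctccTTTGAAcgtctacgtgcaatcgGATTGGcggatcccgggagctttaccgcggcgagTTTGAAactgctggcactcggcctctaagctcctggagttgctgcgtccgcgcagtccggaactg
TTTGAA was present in 15 of 37 cell cycle genes with a window (40.5%), against 20.2% of all genes, and GATTGG in 18 (48.6%), against 18.2%. Both are short patterns that many promoters hold.

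Transcripts of ribosomal proteins and of energy metabolism were mostly lower, by a smaller amount. Of 35 ribosomal protein genes 14 were at least 2-fold lower and 0 higher, with a median of -0.96 and a range of -1.57 to 0.36. With library totals made equal each of these ratios is about 0.33 higher. Of 33 oxidative phosphorylation genes 11 were lower, against 21.2% of all genes, and 0 higher. Their median was -0.84, and -0.5 with library totals made equal. Cycs, cytochrome c, was at 16.8 FPKM in lymph node and 85.2 FPKM in spleen. Of 26 glycolysis genes 15 were lower and 3 higher, with a median of -1.12 that was -0.79 with library totals made equal. Ldha, which makes lactate, was at 91.8 FPKM in lymph node and 635 FPKM in spleen. Pfkfb3, which sets the pace of glycolysis, stood out on the other side at 799 FPKM in lymph node and 34.9 FPKM in spleen, as did Eno2 and Eno3, enolases found mainly in nerve and muscle, at 87.4 FPKM and 376 FPKM in lymph node, against 0.925 FPKM and 49.9 FPKM in spleen. Their widespread relative Eno1 was at 77.3 FPKM in lymph node and 250 FPKM in spleen. The members of this family therefore differed in opposite directions.

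Further functional lists differed in direction. Of 23 genes of the unfolded protein response 13 were lower and 1 higher, with a median of -1.05, and Hspa5, the main chaperone of the endoplasmic reticulum, was at 188 FPKM in lymph node and 558 FPKM in spleen. Of 20 lipid mediator genes 12 were lower and 2 higher, with a median of -1.77. Alox5ap, the activator of leukotriene synthesis, was at 35.6 FPKM in lymph node and 761 FPKM in spleen, whereas Ltc4s was 1 of the 2 higher genes. Of 21 iron and heme genes 9 were lower and 1 higher, with a median of -0.53. Of 29 lysosomal hydrolases and cathepsins 9 were lower and 4 higher, with a median of -0.38; Psap, the saposin precursor, was at 989 FPKM in lymph node and 5235 FPKM in spleen. Cholesterol genes had a median of 0.47, with 7 of 29 higher and 5 lower, near the 23.3% and 21.2% of all genes, and the highest ratios were those of transporters that export cholesterol. Abcg1 was at 201 FPKM in lymph node and 15.9 FPKM in spleen, and Abca1 at 7.38 FPKM in lymph node and 0.650 FPKM in spleen. Immediate early factors had a median of 0.57, with 13 of 29 higher and 5 lower. Klf6 was at 508 FPKM in lymph node and 75.9 FPKM in spleen, and Fos at 563 FPKM in lymph node and 260 FPKM in spleen. Glucocorticoid receptor targets had a median of 0.65, with 4 of 14 higher, near the 23.3% of all genes, and 1 lower. Of these targets Mt2, a metallothionein, was at 457 FPKM in lymph node and 61.5 FPKM in spleen.

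Interferon response genes were uneven. Of 27 interferon-gamma response genes 12 were at least 2-fold higher and 3 lower, with a median of 0.79. The guanylate-binding proteins, GTPases that attack intracellular pathogens, were among its highest ratios: Gbp2 was at 174 FPKM in lymph node and 14.7 FPKM in spleen, and Gbp5 at 105 FPKM in lymph node and 4.60 FPKM in spleen. Irf1, a transcription factor of the response, was at 497 FPKM in lymph node and 48.9 FPKM in spleen. The immunity-related GTPases of the same list did not follow: Igtp was at 6.23 FPKM in lymph node and 5.10 FPKM in spleen, and Irgm1 at 10.7 FPKM in lymph node and 12.5 FPKM in spleen. Of 30 type I interferon response genes 4 were higher and 10 lower, with a median of -0.10 that was 0.23 with library totals made equal. Mx1, an antiviral GTPase, was at 141 FPKM in lymph node and 26.4 FPKM in spleen, and Irf7, the factor that amplifies type I interferon, at 30.6 FPKM in lymph node and 137 FPKM in spleen.

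A form of the interferon-stimulated response element, GAAA followed by any 2 bases and GAAA, was present on either strand in 11 of 20 interferon-gamma genes with a window (55%), against 3.99% of all genes. It is in the windows of Gbp2, Gbp3, Gbp5 and Gbp7 and also in those of Igtp, Irgm1 and Irgm2, so these letters do not separate the GTPases that were higher from those that were not. The windows of Gbp2 (chr3:142620413-142620712) and Gbp5 (chr3:142496684-142496983), both on the plus strand of GRCm38.p6, are shown. Both genes are among the 5 of this list that rose in the test below. Capitals mark the match, and no other match overlaps it.
Gbp2 promoter: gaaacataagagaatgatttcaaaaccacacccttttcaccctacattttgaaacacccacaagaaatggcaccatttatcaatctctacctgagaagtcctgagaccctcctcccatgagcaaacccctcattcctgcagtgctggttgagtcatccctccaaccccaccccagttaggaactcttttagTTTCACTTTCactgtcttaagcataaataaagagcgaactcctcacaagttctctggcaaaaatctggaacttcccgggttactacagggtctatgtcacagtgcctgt
Gbp5 promoter: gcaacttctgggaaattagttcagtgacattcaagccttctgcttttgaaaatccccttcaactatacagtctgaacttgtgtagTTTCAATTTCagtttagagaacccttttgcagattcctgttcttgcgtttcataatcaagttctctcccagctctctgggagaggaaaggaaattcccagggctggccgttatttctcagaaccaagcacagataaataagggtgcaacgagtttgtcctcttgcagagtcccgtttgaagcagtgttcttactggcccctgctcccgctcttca
In both windows the match is the reverse complement of the pattern.

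By ratio alone, among genes that reached 20 FPKM in the higher library and were not listed at 0, the 15 highest were Synpo2, Clu, Akap2, Slco5a1, Fscn1, Cacnb3, Adcy6, Cxcl1, Eno2, Ccl22, Flrt3, Arc, Socs2, Sema6d and Nudt17. Synpo2, an actin-associated protein (chromosome 3 from 123076519 to 123236149, mm10), was at 109 FPKM in lymph node and 0.337 FPKM in spleen, the highest ratio of them at 7.04. Flrt3 and Sema6d, membrane proteins of cell guidance, were at 132 FPKM and 85.4 FPKM in lymph node, against 1.74 FPKM and 1.203 FPKM in spleen. Arc, a protein better known from nerve cells, was at 59.8 FPKM in lymph node and 0.615 FPKM in spleen. Of these 15 genes 8 belong to the maturation list: Slco5a1, Fscn1, Cacnb3, Adcy6, Eno2, Ccl22, Socs2 and Nudt17. That list was put together with earlier results of these libraries known, so the overlap is no independent evidence. The 15 lowest were S100a8, Unc119, Ifi205, Clec9a, Rab7b, Parvg, Ace, Hepacam2, Treml4, Ppt1, Mctp1, Chil3, Itgad, Serpinb10 and Prss30. Unc119, a lipid-binding chaperone, was at 0.548 FPKM in lymph node and 77.1 FPKM in spleen, and Parvg, an integrin-linked adaptor, at 3.14 FPKM in lymph node and 191 FPKM in spleen. Markers of type 1 cells (Ifi205, Clec9a, Rab7b and Ppt1), of monocytes (Ace, Treml4 and Chil3) and of neutrophils (S100a8) made up 8 of the 15. The same limit holds for these lists.

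The tissue difference could be tested only by taking the 3 states together, with the transfer as a term, over all 6 libraries in limma on log2(FPKM + 1). In this test 48 of 10818 genes rose in lymph node relative to spleen (0.444%) and 26 fell (0.240%) at a Benjamini-Hochberg adjusted p under 0.05, and 2738 had an unadjusted p under 0.05. It has 2 residual degrees of freedom and measures how far the 3 states agree on the tissue difference, not the spread between mice. The smallest adjusted p was 0.0222, shared by Ccl17 (log2 difference 4.69 ± 0.25, SE) and Ccl8, a chemokine that was listed at 0 in the spleen of both transfer groups and for which no size is therefore given. Of the 74 genes called, 14 were listed at 0 in at least 1 library. Without the Treg pair the counts were 0 and 0, without the naive T cell pair 880 and 674, and without the un-injected pair 154 and 94. They were 0 and 0 as well with no filter on low values and with 5 added in place of 1, 17 and 5 with a filter of 5 FPKM and 18 and 5 with equal library totals.

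The lists were chosen with earlier results of these libraries known, so their counts in the test over 3 states are no independent evidence. Among the list genes, 8 of the 50 maturation genes rose in this test and 0 fell: Ccl17, Ccl22, Cd40, Cxcl16, Fabp5, Il15ra, Nudt17 and Tnfrsf9. The lowest of them in un-injected lymph node was Tnfrsf9, a costimulatory receptor also known as 4-1BB, at 118 FPKM, against 4.01 FPKM in un-injected spleen. Of 27 interferon-gamma response genes 5 rose, Gbp2, Gbp3, Gbp5, Socs1 and Il18bp, with an adjusted p of 0.0419 in limma for Gbp2 (3.21 ± 0.23, SE) and Gbp5 (3.64 ± 0.31). Of 22 chemokines Ccl8, Ccl17, Ccl22, Cxcl16 and Cx3cl1 rose and Ccl3 fell. Cadm1, an adhesion protein of type 1 cells (9.31 FPKM in lymph node and 76.6 FPKM in spleen), was the 1 type 1 marker that fell, and H2-Oa the 1 class II gene. The erythroid gene Hbb-bt fell too; it was listed at 0 in lymph node and stood at 42.2 FPKM in spleen. Of the genes in no list, Mmp25, a membrane protease, rose with 172 FPKM in lymph node and 3.161 FPKM in spleen in un-injected mice, and Mmp12, a macrophage elastase, fell with 3.35 FPKM in lymph node and 52.1 FPKM in spleen. Ccr7 and Fscn1 were higher in lymph node in all 3 states but did not pass, with adjusted p-values of 0.0909 and 0.0525 in limma. Of the 28 NF-kB genes 0 passed in either direction, which is near the 0.444% that rose and 0.240% that fell among all genes tested.

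The un-injected pair differed between its tissues more widely than the other pairs did. At 2-fold or more 13.1% of genes were higher and 9.45% lower in the naive T cell pair, and 14.0% higher and 8.80% lower in the Treg pair, each over its own genes at 1 FPKM or more. Of the 2595 genes higher in un-injected lymph node, 1146 (44.2%) were also at least 2-fold higher in the Treg pair and 588 (22.7%) in the naive pair, while 26 (1.0%) and 101 (3.89%) were at least 2-fold lower there. Of the 2359 lower genes, 686 (29.1%) were lower in the Treg pair and 510 (21.6%) in the naive pair, while 72 (3.05%) and 250 (10.6%) were higher. Seen from the other side, 76.9% of the genes higher in the Treg pair and 45.5% of those in the naive pair were higher in un-injected mice as well, and 77.2% and 53.3% of the lower ones were lower. Across the 11147 genes, which are not independent replicates, the un-injected ratio had a Spearman correlation of 0.692 with the Treg ratio and 0.327 with the naive ratio. The pairs share no library. At 2-fold or more, 443 of the 11147 genes were higher in all 3 pairs and 276 were lower in all 3.

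List medians lay farther from 0 in un-injected mice for several of the groups described above, and nearer to 0 for others. The chemokine median was 0.67 in un-injected mice, 2.23 in the naive pair and 1.21 in the Treg pair. In the same order, it was 0.79, 1.78 and 1.14 for interferon-gamma response genes. For plasmacytoid markers it was -0.39, 1.4 and 1.38. The maturation median was 3.36 in un-injected mice, 1.02 in the naive pair and 2.34 in the Treg pair. Of the 50 maturation genes 25 were at least 2-fold higher in all 3, against 443 of all 11147 genes. The type 1 median was -4.49 in un-injected mice, -1.22 in the naive pair and -1.49 in the Treg pair. Of the 20 type 1 genes 10 were at least 2-fold lower in all 3, against 276 of all 11147 genes. For MHC class II the median was -1.75 in un-injected mice, -0.36 after naive T cells and -0.69 after Treg. The monocyte list had different signs in the pairs: its median was -3.27 in un-injected mice, 2.48 in the naive pair and -0.62 in the Treg pair. Lyz2 was at 4311 FPKM in lymph node and 502 FPKM in spleen of mice given naive T cells, against 166 FPKM in lymph node and 2116 FPKM in spleen of un-injected mice.

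**Figure D4:**
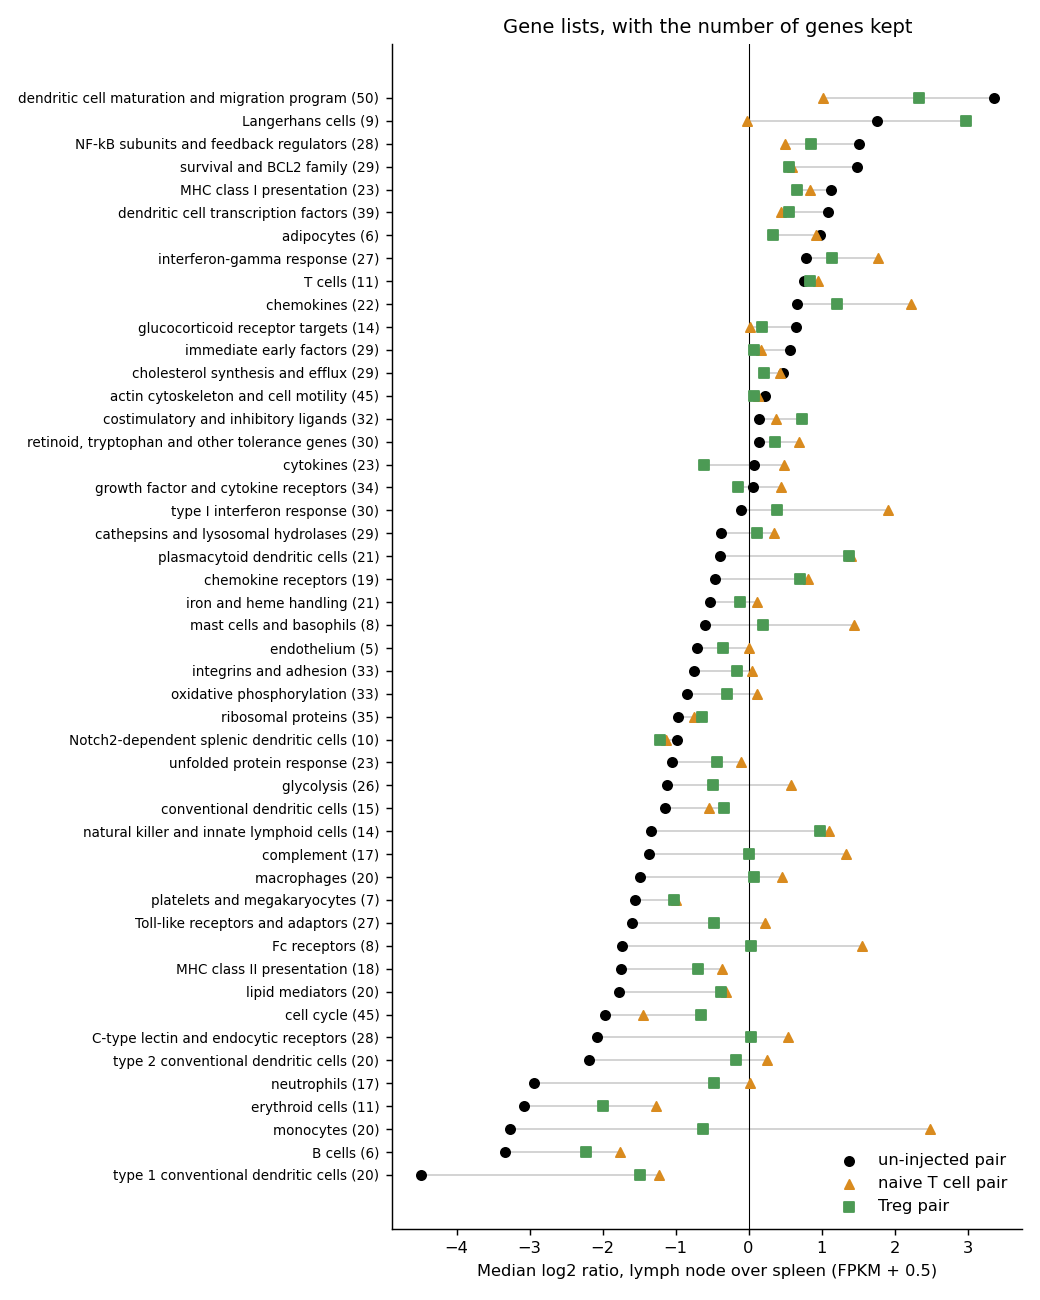
Median log2 ratio of lymph node to spleen for each list with 5 or more genes kept (number in brackets), in the un-injected pair (black circles), the naive T cell pair (orange triangles) and the Treg pair (green squares). The maturation list lies at 3.36 and the type 1 list at -4.49 in un-injected mice, both farther from 0 than in the other pairs, and the monocyte list lies on both sides of 0.

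Whether the un-injected tissue difference departed from the mean of the other 2 pairs was tested in limma with an interaction term, which leaves 1 residual degree of freedom. That 1 degree of freedom is how far the naive T cell and Treg pairs differ in their tissue difference. The p-values are therefore not measured against a spread between replicates. At an adjusted p under 0.05 it called 0 of 10818 genes higher and 0 lower (0.00% each), while the unadjusted p was under 0.05 for 1437 genes and the adjusted p was 0.0592 at its smallest. The genes of smallest p in the higher direction were Gm10800, Gm10801, Gm10197, Ube2e2 and Tead2, and in the lower direction Gm44511, Ly6d, Plbd1, Rasgrp2 and Alox5ap. Plbd1, a phospholipase of myeloid granules, was at 47.3 FPKM in lymph node and 1270 FPKM in spleen of un-injected mice. Clec9a had an interaction of -3.86 ± 0.57 (SE, adjusted p = 0.0879 in limma) and H2-Ab1 one of -2.11 ± 0.32 (adjusted p = 0.0935), so neither passed. The wider difference of the un-injected pair is therefore a description of these libraries.

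**Figure D5:**
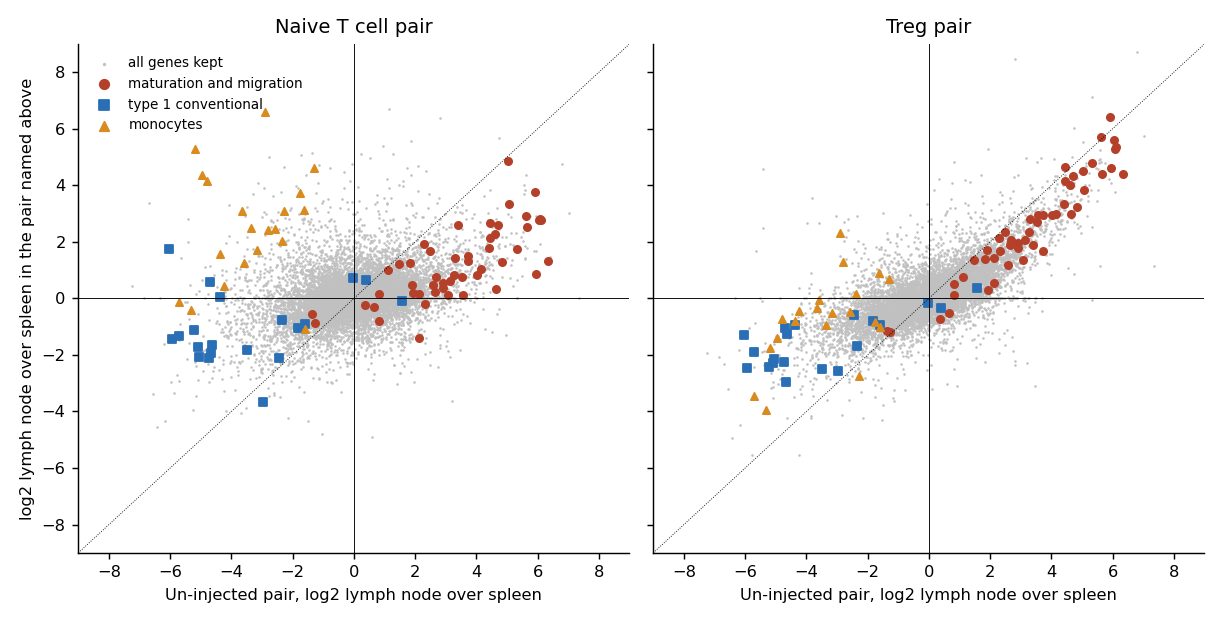
Log2 ratio of lymph node to spleen in un-injected mice (horizontal) against the same ratio in the naive T cell pair (left) and the Treg pair (right) for the 11147 genes. Red circles are maturation genes, blue squares type 1 markers and orange triangles monocyte markers; the monocyte markers lie to the left in both panels and mostly above 0 in the naive pair, and the dotted line marks equal ratios.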

How the data were processed

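The authors deposited 1 table with a value per gene in 6 libraries, made by scaling for gene length and library, and no unit in its header. The deposited values were read as FPKM because they are fractional and their library totals differ; depth is unknown. Tools listed by the submitters' processing notes are RSEM and edgeR 3.16.5, and builds mm10 and GRCm38.p4, without a role. Libraries were Illumina TruSeq from total RNA, per the labels' protocols. The files that hold the authors' pairwise comparisons were not used here.

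The table has 21958 lines; the 38 symbols with several lines were summed and 316 values under 1e-06 were set to 0. Some lines carry an identifier or description of another gene, so genes were taken by symbol, and coordinates from the GENCODE M21 gene of that symbol at that locus (mm10). Log2 ratios used FPKM + 0.5 (Python 3.11.15, pandas 2.3.3). limma 3.58.1 (R 4.3.3) fitted tissue with transfer as a term on log2(FPKM + 1) of genes at 1 FPKM or more in at least 2 libraries, and in a second fit the interaction. With 1 library a group its p-values measure how far the 3 pairs differ, not the spread between mice. Both fits were tested on simulated data. Of 14 letter patterns searched in promoters, 5 are reported.

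The members and the 50 gene lists (1090 genes, of which 925 were kept) were chosen with earlier results of these data known. Named genes are the 15 highest and 15 lowest ratios among genes at 20 FPKM or more (without Gm and Rik symbols and listed zeros), up to 6 leading or defining members of each list, the 5 smallest interaction p-values in each direction, and up to 5 genes that differ one way in un-injected mice and the other way in both other pairs; further list members were picked after their values were seen. Alternatives were other pseudocounts, filters and scalings, fits without a pair of libraries and a fit without the transfer term.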

Additional observations from a re-analysis of the deposited data

Results flagged for a closer look

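At 2-fold or more in each pair, 11 genes were higher in lymph node of un-injected mice and lower in lymph node of both transfer groups, and 40 genes the reverse. Given here are the genes of that kind that reached 20 FPKM in any library (at most 5 in each direction, by the size of the smallest ratio) and the list of 5 or more genes whose median lay at 0.5 or beyond on opposite sides of 0. The difference between pairs is untested for the NK list and did not pass in limma for any gene, with a smallest adjusted p of 0.0592.

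Of the 11 genes 3 reached 20 FPKM, all of them predicted genes. Gm10800 (chromosome 2 from 98666547 to 98667301, mm10) was at 4022 FPKM in lymph node and 720 FPKM in spleen, a log2 ratio of 2.48, against 473 FPKM in lymph node and 2439 FPKM in spleen with naive T cells and 188 FPKM in lymph node and 596 FPKM in spleen with Treg. Its neighbour Gm10801 had a ratio of 2.73, with 614 FPKM in lymph node and 92.1 FPKM in spleen, and Gm21738 one of 1.42, with 120 FPKM in lymph node and 44.5 FPKM in spleen.

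Of the 40 genes 18 reached 20 FPKM, and the 5 with the largest smallest ratio follow. Ly6d, a GPI-anchored protein of lymphoid progenitors, was listed at 0 in lymph node and stood at 20.8 FPKM in spleen, so its log2 ratio of -5.41 after adding 0.5 is no fold. Gm44511, also listed at 0 in lymph node and at 20.8 FPKM in spleen, had the ratio -5.41. Ly6c2, the monocyte antigen Ly6C, had -2.91, with 7.51 FPKM in lymph node and 59.9 FPKM in spleen; with naive T cells it was at 1119 FPKM in lymph node and 10.99 FPKM in spleen. Ly6i had -1.74, with 3.17 FPKM in lymph node and 11.8 FPKM in spleen, and reads of these related Ly6 genes could be split between them. Xcl1, the ligand of XCR1, had -3.82, with 1.59 FPKM in lymph node and 29.1 FPKM in spleen.

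The list of natural killer and innate lymphoid markers had a median of -1.34 in un-injected mice, 1.10 in the naive pair and 0.98 in the Treg pair. It was 1 of 9 lists whose median had the opposite sign in both other pairs; in the other lists at least 1 median lay within 0.5 of 0.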

How the results depend on the processing

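The main counts of 2595 higher and 2359 lower genes were within 1.5 times under a pseudocount of 0.1 (2780 and 2520) or 1 (2344 and 2185), with no filter (2927 and 2532), with a filter of 5 FPKM (1766 and 1806), under median-ratio scaling (2656 and 2285), with equal totals (3374 and 1777) and without the 100 highest genes in the scaling (2842 and 2118). With a pseudocount of 5 they were 1162 and 1302, and with 1 FPKM asked of both libraries 1671 were higher. Of the lists, 27 had a median of 2-fold or more, and 15 with a pseudocount of 5. List medians over few low genes were less stable: 21 of 50 moved with a pseudocount of 5 and 9 of 48 with a filter of 5 FPKM. That filter turned the median of mast cell and basophil markers from -0.60 to 2.26, of cytokines from 0.07 to -0.43 and of tolerance genes from 0.14 to -0.29, and a pseudocount of 5 turned the last to -0.03. It also moved T cell markers to 3.12, endothelial markers to -2.77 and chemokine receptors to -1.48. All 30 genes named for the largest ratios stayed at 2-fold or more in the same direction under these alternatives.

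The limma counts for tissue (48 higher and 26 lower) were less stable. They were 0 and 0 with a pseudocount of 5 and with no filter, 17 and 5 with a filter of 5 FPKM, 18 and 5 with equal totals, 186 and 125 without the transfer term, and 30 higher under quantile scaling. Leaving out 1 pair of libraries gave 0 to 880 higher and 0 to 674 lower. The cause was not tested. The interaction called 0 genes in each setting run, with 1149 to 1437 at an unadjusted p under 0.05. No paired analysis was possible because the labels tie no libraries to the same animals; the pairs used in limma share a transfer state, not an animal. Depth is unknown, so low values carry an error that cannot be stated.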
